A study of Mus musculus with 6 samples.

Results

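The 8 genes described here, *Stra6l*, *Cadm3*, *Adam23*, *Anpep*, *Ffar2*, *Actn1*, *Igfbp4* and *Dapl1*, were less abundant in CD4+Lrig1+ than in CD4+Lrig1- T cells of the mouse spleen. They are 8 of the 45777 genes in the deposited tables and 8 of the 16123 that passed the filter on low counts. They were selected on their measured counts, which were lower in the CD4+Lrig1+ columns of both tables, or as markers of naive T cells. The difference between the sorts is therefore described for them and not tested. Bulk RNA sequencing was performed on CD4+ T cells separated into those with (CD4+Lrig1+) and without (CD4+Lrig1-) Lrig1, here called the sorts. Lrig1 is a transmembrane protein of the leucine-rich repeat and immunoglobulin domain family. All cells came from spleens of female C57BL/6 mice of 7 weeks, and the sources used here do not give how many animals made up a library. The labels list 3 samples per group. Analysed here were 2 tables, each with 1 CD4+Lrig1+ and 1 CD4+Lrig1- library. They are referred to as set 1 and set 2, and n = 2 per sort.

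The libraries held 44865070 to 59977951 estimated counts. The libraries differed more between the sets than between the sorts, with a correlation across genes of log2 CPM (read counts brought to a common library size by the TMM method) of 0.960 and 0.959 within the sets against 0.908 between them in each sort. Each gene is therefore given by library and compared within its set. *Lrig1* had 221 and 129 CPM in the CD4+Lrig1+ libraries of set 1 and set 2 against 75.4 and 36.7 CPM in the CD4+Lrig1- libraries, which is the order of the sort. *Foxp3*, which encodes the defining transcription factor of regulatory T cells, had 589 and 615 against 48.9 and 30.7 CPM. The 8 markers of CD4 T cells, *Cd3e* and *Cd4* among them, summed to 4429 and 6605 CPM in CD4+Lrig1+ and to 4230 and 6567 CPM in CD4+Lrig1- T cells.

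A naive T cell has left the thymus and has not met its antigen. It circulates between blood and lymphoid organs, depends on IL-7 and the receptor for sphingosine-1-phosphate, and keeps a set of genes on that is switched down after activation. *Igfbp4*, *Dapl1* and *Actn1* belong to genes often seen in profiles of naive CD4 T cells, where they are less abundant in activated, memory and regulatory T cells. The other 5 genes encode proteins of the cell surface: a receptor that takes up retinol (*Stra6l*), an adhesion molecule (*Cadm3*), a membrane protein of the disintegrin family (*Adam23*), an aminopeptidase (*Anpep*) and a receptor for short-chain fatty acids (*Ffar2*).

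*Igfbp4* was the most abundant of the 8 in every library by TPM (a level per transcript length). It encodes a secreted protein that binds insulin-like growth factors. Its gene spans chr11:99040005-99052655 of GRCm38 on the plus strand. It had 709 CPM (33958 estimated counts) in CD4+Lrig1- and 192 CPM (9976 counts) in CD4+Lrig1+ T cells of set 1, and 1070.2 CPM (57801 counts) and 157 CPM (8993 counts) in set 2. Both CD4+Lrig1+ libraries lay below both CD4+Lrig1- libraries. The CD4+Lrig1- level was 3.70-fold that of CD4+Lrig1+ T cells in set 1 (95% counting interval 3.62 to 3.78) and 6.83-fold in set 2 (6.68 to 6.99). These intervals come from the split of the counts between 2 libraries and cover counting error only, which for an abundant gene is far smaller than the difference between the sets. In a bulk library, fewer cells that express a gene and less RNA per cell cannot be told apart, here and for each gene that follows.

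*Dapl1*, which encodes a small relative of death-associated protein, had 39.2 CPM (1876 counts) in CD4+Lrig1- and 14.9 CPM (774 counts) in CD4+Lrig1+ T cells of set 1. In set 2 it had 93.8 CPM (5068 counts) and 19.0 CPM (1090 counts). The CD4+Lrig1- level was 2.63-fold (2.42 to 2.87) and 4.94-fold (4.63 to 5.28) that of CD4+Lrig1+ T cells. The CD4+Lrig1- libraries differed from each other by 2.40-fold and the CD4+Lrig1+ libraries by 1.28-fold. Both levels were higher in set 2, the CD4+Lrig1- level by more. Because its single transcript of 573 bases is short, *Dapl1* ranked high per length, with 175 and 231 TPM in the CD4+Lrig1- libraries. The gene lies at chr2:59484653-59505020 on the plus strand.

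*Actn1* encodes alpha-actinin-1, which cross-links actin filaments and ties them to adhesion sites, and lies at chr12:80167542-80260420 on the minus strand. It had the smallest difference of the 8 genes and the narrowest counting intervals, which cover counting error only. The CD4+Lrig1- libraries held 608 and 595 CPM (29103 and 32126 counts), within 1.02-fold of each other. The CD4+Lrig1+ libraries held 326 and 251 CPM (16979 and 14423 counts), which differed by 1.30-fold. The fold was 1.86 (1.83 to 1.90) in set 1 and 2.37 (2.32 to 2.42) in set 2, and the intervals do not overlap.

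**Figure D1:**
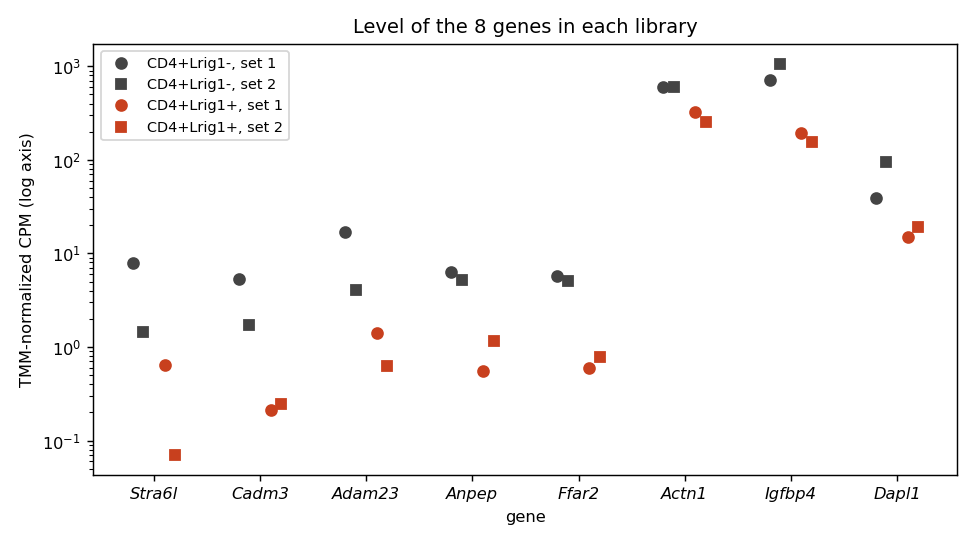
TMM-normalized CPM of each of the 8 genes (log axis) in the CD4+Lrig1- (dark) and CD4+Lrig1+ (red) libraries of set 1 (circles) and set 2 (squares), 1 point per library. For every gene both red points lie below both dark points, with the smallest gap, as a ratio, at 595 against 326 CPM for *Actn1*.

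The 250 bases upstream of the RefSeq start sites of *Igfbp4* and *Dapl1* are shown because both genes start downstream of a TATA box on their own strand. Sequences are from RefSeq, build GRCm38.p6, written 5' to 3' on the strand of the gene. Capitals mark every match, on either strand, of 5 short motifs. The TATA box was searched as TATAAA. The core that TCF and LEF factors bind was searched as CTTTGA. For Foxo factors the searched core was GTAAACA. For Klf factors it was CACCC, and for the Runx family of factors the core was TGTGGT.
Igfbp4 (chr11:99040994-99041243, plus strand): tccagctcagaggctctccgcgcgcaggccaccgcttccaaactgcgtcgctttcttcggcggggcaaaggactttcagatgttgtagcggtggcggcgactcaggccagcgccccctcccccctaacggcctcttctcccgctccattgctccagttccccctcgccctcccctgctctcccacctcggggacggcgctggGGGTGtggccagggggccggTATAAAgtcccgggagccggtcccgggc
Dapl1 (chr2:59484403-59484652, plus strand): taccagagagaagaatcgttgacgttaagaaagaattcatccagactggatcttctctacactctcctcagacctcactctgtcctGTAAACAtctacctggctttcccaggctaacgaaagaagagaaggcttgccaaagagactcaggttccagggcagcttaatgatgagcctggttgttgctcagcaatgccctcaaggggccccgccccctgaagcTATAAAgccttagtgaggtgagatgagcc

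TATAAA began 28 bases before the start of *Igfbp4* and 29 bases before the start of *Dapl1*, in the same orientation. Over the 32841 RefSeq windows of 250 bases, 12.4% held TATAAA on either strand, and 3 of the 12 windows of the 8 genes did (the other in *Stra6l*, on the opposite strand). GTAAACA was found in 1 window, that of *Dapl1*, 164 bases before the start, against 3.17% of all windows. CTTTGA was in 0 of the 12 windows against 13.8% of all windows. CACCC was in 9 of 12 windows, from 6 of the 8 genes, against 52.0%, and TGTGGT in 4 of 12, from 3 genes, against 14.0%. The windows of *Stra6l* overlap, as do 2 of *Ffar2*, so the same sites are counted in more than 1 window. The windows differ in composition: the ratio of observed to expected CpG was 0.748 for *Igfbp4*, 0.901 for *Adam23* and 0.799 for *Anpep*, and 0.257 for *Dapl1*, against a median of 0.374 over all windows. The letters show where a motif is spelled and do not show that a factor binds there.

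The surface genes were far less abundant. In set 1 each of them had a larger fold than *Igfbp4*, *Dapl1* and *Actn1*, whereas in set 2 the folds of both groups of genes overlapped. *Adam23* encodes a disintegrin and metalloprotease family member that lacks protease activity and binds integrins and Lgi proteins. It had 16.8 CPM (805 counts) in CD4+Lrig1- and 1.42 CPM (74 counts) in CD4+Lrig1+ T cells of set 1, and 4.07 CPM (220 counts) and 0.627 CPM (36 counts) in set 2. The fold was 11.8 (9.30 to 15.2) and 6.50 (4.55 to 9.52), and the CD4+Lrig1- libraries differed by 4.13-fold. The gene spans chr1:63445717-63596111 on the plus strand.

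*Anpep* encodes aminopeptidase N (CD13), an enzyme on the outer face of the membrane that removes amino acids from the ends of peptides. It had 6.35 CPM (304 counts) in CD4+Lrig1- and 0.558 CPM (29 counts) in CD4+Lrig1+ T cells of set 1. In set 2 it had 5.22 CPM (282 counts) and 1.15 CPM (66 counts). The fold was 11.4 (7.77 to 17.3) in set 1 and 4.54 (3.46 to 6.03) in set 2. The intervals do not overlap, and the CD4+Lrig1- libraries were within 1.22-fold of each other. The gene lies at chr7:79821803-79848210 on the minus strand.

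*Ffar2* (chr7:30818031-30823775, minus strand) encodes a G protein-coupled receptor for acetate, propionate and butyrate, which gut bacteria make from fibre. The CD4+Lrig1- libraries had 5.68 and 5.02 CPM (272 and 271 counts) and the CD4+Lrig1+ libraries had 0.596 and 0.784 CPM (31 and 45 counts). The fold was 9.53 (6.56 to 14.3) in set 1 and 6.40 (4.66 to 8.99) in set 2, so the intervals overlapped and the libraries of each sort differed by 1.13-fold and 1.31-fold.

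*Cadm3* encodes a cell adhesion molecule of the immunoglobulin superfamily best known from neurons, and its levels in T cells were near the lower end of detection. It had 5.30 CPM (254 counts) in CD4+Lrig1- and 0.212 CPM (11 counts) in CD4+Lrig1+ T cells of set 1, and 1.72 CPM (93 counts) and 0.244 CPM (14 counts) in set 2. The CD4+Lrig1+ libraries were alike, and the CD4+Lrig1- libraries differed by 3.08-fold. The fold was 25.1 (13.8 to 50.9) in set 1 and 7.06 (4.01 to 13.4) in set 2. The gene spans chr1:173331892-173368139 on the minus strand and shares 18593 bases of its span with *Aim2*, which lies on the plus strand. *Aim2* had the opposite difference, with 36.7 and 18.8 CPM in CD4+Lrig1- and 64.8 and 29.5 CPM in CD4+Lrig1+ T cells. The library kit marks strand, but the sources used here do not say whether the counting used it, so reads from the shared stretch cannot be assigned with certainty.

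*Stra6l* encodes a membrane receptor for the retinol-binding protein of plasma. It had 7.85 CPM (376 counts) in CD4+Lrig1- and 0.635 CPM (33 counts) in CD4+Lrig1+ T cells of set 1, and 1.44 CPM (78 counts) and 0.0696 CPM (4 counts) in set 2. The fold was 12.4 (8.66 to 18.2) and 20.7 (7.78 to 78.0). Libraries of the same sort differed by 5.44-fold and 9.11-fold between the sets, the widest of the 8 genes in both sorts. The gene spans chr4:45824293-45887010 on the plus strand. The window upstream of the start of NM_001305421, to which set 2 assigned all its counts, is shown because the transcript that took the counts differed between the sets.
Stra6l (chr4:45848566-45848815, plus strand): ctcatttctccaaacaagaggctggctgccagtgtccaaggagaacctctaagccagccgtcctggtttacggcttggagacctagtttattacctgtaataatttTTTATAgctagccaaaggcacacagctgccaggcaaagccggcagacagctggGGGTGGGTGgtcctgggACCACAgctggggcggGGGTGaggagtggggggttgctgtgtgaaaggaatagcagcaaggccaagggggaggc

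**Figure D2:**
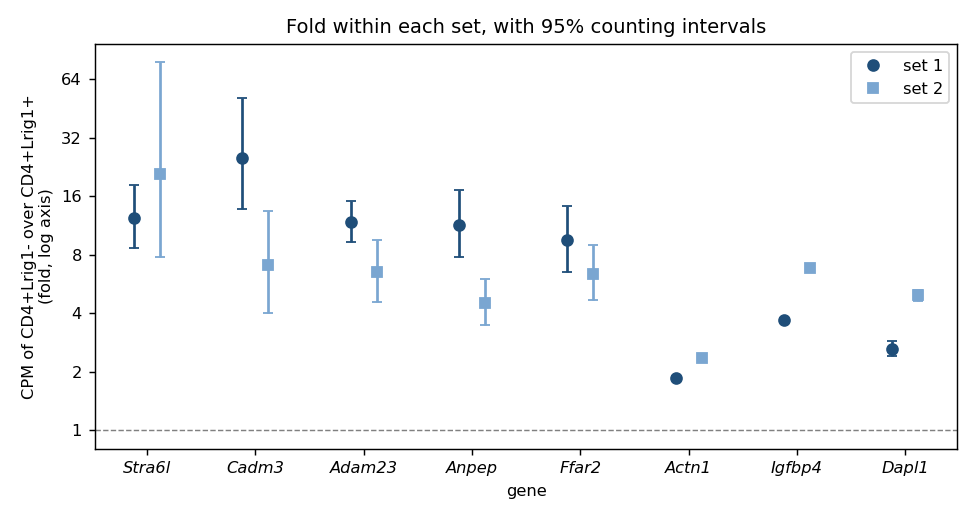
CPM of CD4+Lrig1- divided by CPM of CD4+Lrig1+ T cells (fold, log axis) for each of the 8 genes in set 1 (circles) and set 2 (squares), with 95% counting intervals of the 2 libraries compared. The folds run from 1.86 (*Actn1*, set 1) to 25.1 (*Cadm3*, set 1). *Igfbp4*, *Dapl1*, *Actn1* and *Stra6l* had the larger fold in set 2 and the other 4 genes in set 1.

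Across the 8 genes the ratio of the CD4+Lrig1+ to the CD4+Lrig1- level had a median of -3.30 (log2) in set 1 and -2.63 in set 2, against 0.01 and -0.06 over all genes tested. For the 5 surface genes it was -3.53 and -2.63, and for *Actn1*, *Igfbp4* and *Dapl1* it was -1.39 and -2.30. All 8 genes had both CD4+Lrig1+ libraries below both CD4+Lrig1- libraries, as did 11.8% of all genes tested. In both sets the log2 ratio was below 0 for 8 of 8, beside 41.5% of all genes, and 7 of 8 (all but *Actn1*) were at least 2-fold lower in CD4+Lrig1+ T cells, beside 3.01%. Since the genes were picked for that difference, nothing is read from these counts. Over the 2 libraries of a sort, the level of *Igfbp4* was 889.7 ± 255 CPM in CD4+Lrig1- and 174 ± 24.9 CPM in CD4+Lrig1+ T cells (mean ± SD, n = 2), and that of *Stra6l* was 4.65 ± 4.53 and 0.352 ± 0.399 CPM. For *Stra6l* the SD was thus about as large as the mean in both sorts. The log2 fold changes over all 4 libraries from edgeR ran from -1.06 for *Actn1* to -3.93 for *Cadm3*. Leaving out single libraries moved the fold of 5 genes by over 1.5 times. Without the CD4+Lrig1- library of set 1 the log2 fold change was -2.004 for *Stra6l*, -1.95 for *Adam23* and -2.86 for *Cadm3*, against -3.72, -3.35 and -3.93 with all libraries. When the CD4+Lrig1+ library of set 1 was left out it was -6.01 for *Stra6l* and -4.04 for *Adam23*. Leaving out the CD4+Lrig1- library of set 2 gave -4.47 for *Stra6l*, -4.03 for *Adam23*, -4.52 for *Cadm3* and -1.21 for *Dapl1*, against -1.97 for *Dapl1* with it. Leaving out the CD4+Lrig1+ library of set 2 gave -2.87 for *Stra6l* and -3.37 for *Anpep*, against -2.76 for *Anpep* with it.

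Per length, the 8 genes fell into 2 ranges in every library. In the CD4+Lrig1- library of set 1, *Igfbp4* (862 TPM), *Actn1* (416 TPM) and *Dapl1* (175 TPM) were above 94.7% of the genes tested or higher, and the surface genes ran from 2.67 TPM (*Cadm3*) to 7.27 TPM (*Ffar2*). In the CD4+Lrig1+ library of set 1 the same 3 genes had 226, 217 and 64.9 TPM, and the surface genes 0.0738 to 0.848 TPM. *Igfbp4* was again the most abundant in set 2, with 715 and 112 TPM, and *Ffar2* the most abundant surface gene, with 3.96 and 0.580 TPM. The order of other genes changed between the sets. In the CD4+Lrig1- library of set 2 *Dapl1* (231 TPM) stood above *Actn1* (223 TPM), and in the CD4+Lrig1+ library of set 2 *Stra6l* (0.0224 TPM) stood below *Cadm3* (0.0503 TPM). TPM values are compared only within a library, because the median gene had a log2 TPM lower by 0.82 in the CD4+Lrig1- library of set 2 than in that of set 1.

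Markers of dendritic cells moved with these genes. The 8 dendritic cell markers summed to 59.96 and 62.1 CPM in CD4+Lrig1- and to 14.5 and 13.8 CPM in CD4+Lrig1+ T cells, 4.15-fold and 4.51-fold, and within each set 7 of the 8 had their higher level in CD4+Lrig1-. *Siglech*, a receptor of plasmacytoid dendritic cells, had 12.6 and 27.0 against 3.77 and 2.54 CPM. *Flt3*, the receptor for the dendritic cell growth factor, had 9.54 and 7.18 against 1.63 and 0.905 CPM, and *Itgax* (CD11c) had 29.5 and 17.4 against 4.42 and 6.27 CPM. *Xcr1* was the exception, with 0.251 and 0.833 against 0.923 and 1.41 CPM, and *Batf3* was under 1 CPM in every library. *Anpep* is known from dendritic and other myeloid cells, and *Ffar2* from neutrophils. The part of such cells in the differences of the surface genes was not tested.

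The sums of the other marker lists are given with some of the members that differed from them. Neutrophil markers summed to 8.54 and 74.0 CPM in CD4+Lrig1- and to 7.23 and 31.7 CPM in CD4+Lrig1+ T cells. Among them *S100a9*, *Camp* and *Mpo* differed in direction between the sets, higher in CD4+Lrig1+ in set 1 and in CD4+Lrig1- in set 2. Monocyte and macrophage markers had the opposite order, higher in CD4+Lrig1+, with 87.4 and 298 CPM against 48.2 and 245 CPM. But 3 of the 10, *Itgam*, *Fcgr3* and *Clec7a*, were higher in CD4+Lrig1- in both sets, and *Lyz2* and *Adgre1* differed in direction between the sets. *Itgam* (CD11b) had 10.2 and 14.6 CPM in CD4+Lrig1- and 4.38 and 4.46 CPM in CD4+Lrig1+ T cells. B cell markers summed to 68.3 and 717 against 87.7 and 367 CPM. Of the 10 B cell markers, 7 were higher in CD4+Lrig1- in both sets, and *Cd22*, *Cd79b* and *Vpreb3* only in set 2. *Cd8a* and *Cd8b1* together summed to 19.5 and 97.3 against 14.1 and 51.6 CPM. NK cell markers summed to 28.6 and 67.9 against 31.4 and 59.0 CPM, yet 4 of the 5 were higher in CD4+Lrig1- within each set. *Klrb1c*, which encodes NK1.1, had 21.9 and 46.7 against 6.29 and 13.6 CPM, and *Klre1* had 1.17 and 4.31 against 0.231 and 1.11 CPM. *Eomes*, a transcription factor that T cells also express, went the other way, with 4.198 and 9.18 against 24.1 and 41.3 CPM. Erythroid markers summed to 9.34 and 96.1 against 9.27 and 84.6 CPM, and endothelial markers, nearly all *Pecam1*, to 209 and 217 against 171 and 150 CPM. Among the latter, *Cdh5* (VE-cadherin) had 1.57 and 2.63 against 0.365 and 0.400 CPM. Stromal markers summed to 0.313 and 0.981 against 1.87 and 1.98 CPM, with 4 of the 7 at 0 counts in all libraries. Stromal cells are known to make *Igfbp4*. The part of these other cell types in the differences was not tested.

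The deposited counts of a gene are split between its RefSeq transcripts, which the choice of genes did not use. *Igfbp4* rested on NM_010517 in every library, with 94.5% and 95.3% of its counts in CD4+Lrig1- and 92.2% and 90.4% in CD4+Lrig1+ T cells. *Actn1* rested on NM_134156, with 93.5% and 81.7% in CD4+Lrig1- and 81.4% and 91.4% in CD4+Lrig1+ T cells. The share was lower in CD4+Lrig1+ T cells in set 1 and higher in set 2. *Anpep* and *Dapl1* have 1 transcript each. For *Adam23*, XM_006495969 took 39.3% of the counts in the CD4+Lrig1- library of set 1 and 85.1% to 86.8% in the other 3 libraries. For *Cadm3*, XM_006497060 took 35.4% and 81.7% in CD4+Lrig1- T cells and 100% in both CD4+Lrig1+ libraries, where it stood on 11 and 14 counts. *Stra6l* had 93.4% of its counts on NM_028788 in the CD4+Lrig1- library of set 1 and 0% in the other 3. The 33 counts of the CD4+Lrig1+ library of set 1 were on the predicted transcripts XM_006538310 (19) and XM_006538315 (14). In set 2 all of its counts, 78 and 4, were on NM_001305421, which held 10 and 0 counts in set 1. *Ffar2* was spread over 9 of its 10 listed transcripts, and the leading one, NM_001168512, held 9.68% to 53.3%. With 2 libraries per group, an exact permutation test of 1 share cannot give a p below 0.333, and no share was tested.

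**Figure D3:**
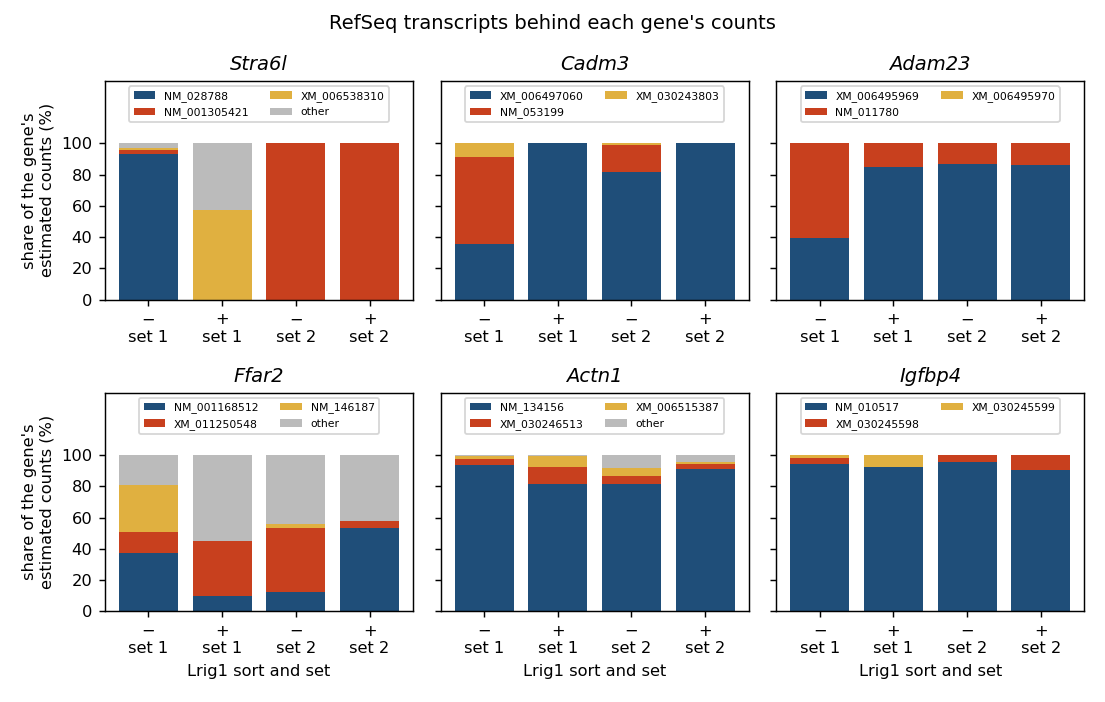
Share (percent) of the estimated counts of the 6 genes with several transcripts that was assigned to their 3 most counted RefSeq transcripts and to all others, in the CD4+Lrig1- and CD4+Lrig1+ libraries of set 1 and set 2. *Igfbp4* and *Actn1* kept a leading transcript above 81% in every library, whereas the leading transcript of *Stra6l* was NM_028788 in CD4+Lrig1- of set 1 and NM_001305421 in both libraries of set 2.

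The families and partners of the 8 genes were examined over all genes tested. Without a term for the table, edgeR's quasi-likelihood test called 0 of the 16123 genes in either direction (0%) at an adjusted p under 0.05. At an unadjusted p under 0.05 it gave 227 lower and 674 higher genes, and the DESeq2 Wald test called 50 lower (0.31%) and 260 higher (1.61%). With the table as a term, which leaves 1 residual degree of freedom, the quasi-likelihood test called 12.8% of all genes lower and 14.6% higher in CD4+Lrig1+ T cells. The calls in the following paragraphs are from that fit, with Benjamini-Hochberg adjustment over all genes, and none of them was made by the same test without the term. Of the genes of the pathway lists, the DESeq2 Wald test without the term called *Stra6*, *Dhrs3*, *Tigit*, *Igfbp7*, *Pdlim4* and *Amigo2*. Of the 8 genes themselves all were called lower, beside 12.8% of all genes, in the contrast that chose them. Without the term, the quasi-likelihood test called 0 of the 8 lower and the DESeq2 Wald test called 5.

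Of 20 other naive T cell genes, all tested, 17 were called lower in CD4+Lrig1+ T cells and 1 higher, beside 12.8% and 14.6% of all genes tested. The list was chosen with earlier results of these data known, so these calls are not independent of that choice. Their median ratio was -0.70 (log2) in set 1 and -0.95 in set 2, against 0.01 and -0.06 over all genes. *Satb1*, a chromatin organizer, had 927 and 796 CPM in CD4+Lrig1- against 355 and 226 CPM in CD4+Lrig1+ T cells (log2 fold change -1.60, adjusted p = 1.52e-04, edgeR with the table term). *Txk*, a Tec family kinase, had 119 and 139 against 56.9 and 51.1 CPM, and *Ccr9*, a gut homing receptor, had 24.1 and 28.4 against 9.54 and 12.6 CPM (log2 fold change -1.26 for each, adjusted p = 1.69e-04 and 1.94e-04, edgeR). *Id3*, an inhibitor of E proteins, was called higher, with 26.5 and 45.6 against 66.3 and 110.2 CPM (log2 fold change 1.30, adjusted p = 4.26e-05, edgeR). *Nsg2* and *Il6st* were not called. The ratios of *Igfbp4* and *Dapl1* in set 2, at -2.77 and -2.30, lay below those of all 20 genes, and in set 1 *Igfbp4* (-1.89) lay below all 20. *Actn1*, at -0.90 and -1.24, lay within their range. Since *Igfbp4*, *Dapl1* and *Actn1* were chosen on this contrast or as naive T cell markers, nothing is read from this order.

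**Figure D4:**
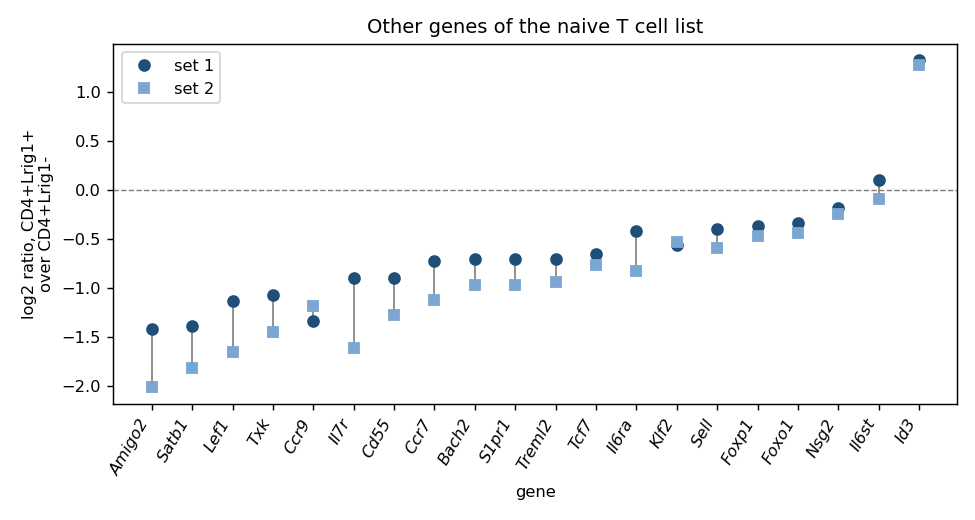
Level in CD4+Lrig1+ relative to CD4+Lrig1- T cells (log2 ratio) in set 1 (circles) and set 2 (squares) for the 20 other genes of the naive T cell list, ordered by fold change. 18 of the 20 lie below 0 in both sets, beside 41.5% of all genes tested. *Id3* lies above 0 in both, and *Il6st* lies on either side.

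*Stra6l* and its paralog *Stra6*, both receptors for retinol-binding protein, differed in opposite directions. *Stra6* had 0.564 and 0.315 CPM in CD4+Lrig1- and 5.61 and 6.65 CPM in CD4+Lrig1+ T cells (log2 fold change 3.82, adjusted p = 2.37e-04, edgeR with the table term). Of 20 genes of retinoid handling, 13 were tested, 0 were called lower and 6 higher, beside 12.8% and 14.6% of all genes tested. Among these were *Dhrs3*, a retinal reductase (1.96 and 2.39 against 12.5 and 14.8 CPM, log2 fold change 2.65), the receptor *Rarg* (43.3 and 35.9 against 89.8 and 83.3 CPM, 1.13) and its partner *Rxra* (0.47). Their adjusted p values in edgeR were 3.78e-05, 1.04e-04 and 0.00742.

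Of the other binding proteins of insulin-like growth factors, *Igfbp7* alone passed the filter on low counts, with 3 and 8 counts in the CD4+Lrig1- and 86 and 184 counts in the CD4+Lrig1+ libraries, and was called higher (adjusted p = 4.30e-04, edgeR with the table term). *Igfbp1*, *Igfbp2*, *Igfbp3* and *Igfbp5* had 0 counts in all libraries, and *Igfbp6* had 4 to 22. The receptor *Igf1r* was called higher in CD4+Lrig1+ T cells, with 49.1 and 18.2 against 153 and 67.2 CPM (log2 fold change 1.76, adjusted p = 2.34e-05, edgeR). *Igf2r* was called higher (0.60, adjusted p = 0.00133) and the insulin receptor *Insr* lower (-0.39, adjusted p = 0.0117) in the same edgeR fit. Of the 18 listed genes of this system 9 were tested, with 1 called lower and 5 higher, beside 12.8% and 14.6% of all genes tested.

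*Actn4*, a paralog of *Actn1*, had 269 and 241 CPM in CD4+Lrig1- and 307 and 257 CPM in CD4+Lrig1+ T cells (log2 fold change 0.14, adjusted p = 0.242, edgeR with the table term). Its level was like that of *Actn1* in CD4+Lrig1+ T cells only, since *Actn1* had 608 and 595 CPM in CD4+Lrig1-. Of 15 genes for alpha-actinins and their partners, all tested, 4 were called lower and 0 higher, beside 12.8% and 14.6% of all genes tested. The list median was 0.03 in set 1 and -0.09 in set 2. Of the 4, 3 encode PDZ and LIM domain proteins that bind alpha-actinin. *Pdlim4* had 51.5 and 55.9 against 12.7 and 6.76 CPM (log2 fold change -2.52, adjusted p = 2.53e-04, edgeR). *Pdlim1* (-0.71, adjusted p = 0.00111) and *Pdlim5* (-0.54, adjusted p = 0.00629) had smaller differences in that edgeR fit, and the actin cross-linker *Flna* had -0.48 (adjusted p = 0.0204, edgeR).

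*Adam11* and *Adam22* are the closest relatives of *Adam23* and, like it, have no protease activity. *Adam11* was called lower, with 9.94 and 0.907 against 1.48 and 0.0696 CPM (log2 fold change -2.96, adjusted p = 5.99e-04, edgeR with the table term). *Adam22* had 1.44 and 0.407 against 0.173 and 0.505 CPM and was not called. The active protease *Adam19* was called higher (100.6 and 51.1 against 210 and 104 CPM, log2 fold change 1.04, adjusted p = 8.99e-05, edgeR). Of the 15 listed genes 10 were tested, with 2 called lower and 2 higher, beside 12.8% and 14.6% of all genes tested. The other lower gene was *Adam8* (-0.56, adjusted p = 0.0358), and the other higher gene was *Lgi2*, with 0 counts in both CD4+Lrig1- libraries and 17 and 29 in the CD4+Lrig1+ libraries (adjusted p = 0.0146, edgeR).

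The remaining families showed no common direction, and their counts stand beside 12.8% of all genes tested called lower and 14.6% called higher. In the nectin and Cadm family 1 of 10 tested genes was called lower and 3 higher. *Cadm1* and *Cadm4*, the paralogs of *Cadm3*, were not called (log2 fold changes 0.67 and -1.05, each with under 5 CPM in every library). The inhibitory receptor *Tigit* was called higher (2.91, adjusted p = 1.28e-05) and its ligand *Pvr* lower (-0.68, adjusted p = 0.00288) in edgeR with the table term. The other higher genes were *Nectin2* (0 and 9 against 78 and 105 counts, adjusted p = 0.00644) and *Cd96* (log2 fold change 0.34, adjusted p = 0.0155) in that edgeR fit. Among 8 surface peptidases tested, 1 was called lower and 3 higher. The higher genes were *Ecel1* (0 and 0.296 against 1.54 and 3.57 CPM, adjusted p = 0.00354), *Lap3* (log2 fold change 0.57, adjusted p = 0.00483) and *Rnpep* (0.61, adjusted p = 0.00568) in the same edgeR fit. The lower gene was *Lnpep*, a relative of *Anpep*, at -0.38 (adjusted p = 0.0108, edgeR). *Enpep*, the closest relative, did not pass the filter, with 17 counts over all 4 libraries. Among 7 tested genes for fatty acid receptors and their signalling, the G protein subunit *Gnaq* was called higher (1.86, adjusted p = 3.74e-05) and *Arrb2* lower (-0.38, adjusted p = 0.00946, edgeR). *Ffar1* had under 1 CPM in every library and *Ffar3* had 0 counts. *Dap*, the paralog of *Dapl1*, had 52.6 and 96.8 against 51.5 and 97.8 CPM (adjusted p = 0.957, edgeR), and 1 of the 6 genes of its list was called, *Eif5a*, higher (0.55, adjusted p = 0.00431, edgeR).

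**Figure D5:**
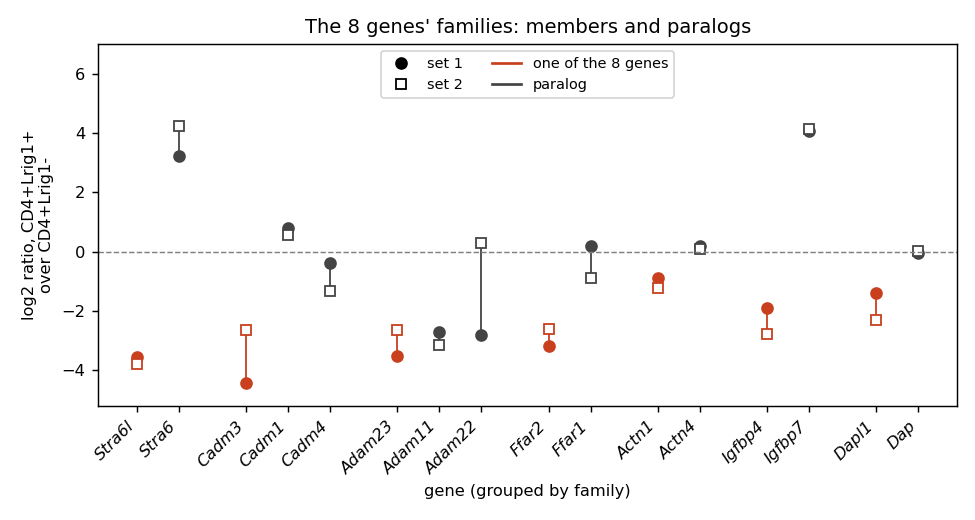
Level in CD4+Lrig1+ relative to CD4+Lrig1- T cells (log2 ratio) in set 1 (circles) and set 2 (open squares) for 7 of the 8 genes (red) and their tested paralogs (dark). *Stra6*, *Igfbp7* and *Cadm1* lie above 0 in both sets, *Adam11* and *Cadm4* below 0 in both, and *Actn4* and *Dap* within 0.19 of 0.

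The genes next to the 8 on their chromosomes had no common direction. Of 61 RefSeq genes within 100 kb of them, 22 were tested. In edgeR with the table term 1 was called lower and 6 higher, beside 12.8% and 14.6% of all genes tested. The median ratio of these 22 was 0.12 (log2) in set 1 and 0.01 in set 2. The 1 lower neighbour was *Ccr7*, the lymph node homing receptor of naive T cells, 91.5 kb from *Igfbp4*. It had 410 and 747 CPM in CD4+Lrig1- and 249 and 344 CPM in CD4+Lrig1+ T cells (log2 fold change -0.92, adjusted p = 0.00120, edgeR). Between these 2 genes *Tns4* had under 1 CPM in every library, and on the other side *Top2a*, 15.8 kb away, was called higher (0.99, adjusted p = 0.00137, edgeR). Near *Actn1*, 34.7 kb away, the noncoding gene *2310015A10Rik* was called higher, with 11.0 and 5.57 against 48.6 and 25.7 CPM (log2 fold change 2.17, adjusted p = 1.60e-05, edgeR). The largest difference was that of *Pex11a*, 78.7 kb from *Anpep*, with 0.856 and 0.537 against 4.31 and 4.89 CPM (2.74, adjusted p = 8.51e-04, edgeR). The DESeq2 Wald test without the term called it too (adjusted p = 0.0184). The other higher neighbours were *Zfp36l1* (0.69, adjusted p = 0.00153), *Aim2* (0.74, adjusted p = 0.00115) and *Tdrd7* (0.45, adjusted p = 0.0470) in the same edgeR fit.

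Of 12685 other genes with a mean of at least 1 CPM, the 5 whose centred log2 CPM over the 4 libraries lay nearest to the median of the 8 genes were *Il12rb2*, *Fam240a*, *Csf2rb2*, *Mmp12* and *Atp8a2*, at Euclidean distances of 0.310 to 0.466. The 8 genes themselves lay at 0.630 (*Ffar2*) to 2.51 (*Stra6l*) from their own median. *Il12rb2*, which encodes a chain of the receptor for IL-12, had 11.7 and 9.29 CPM in CD4+Lrig1- and 1.67 and 1.85 CPM in CD4+Lrig1+ T cells. *Csf2rb2*, a receptor chain for IL-3, had 7.14 and 6.41 against 1.63 and 1.10 CPM.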

How the data were processed

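CD4+Lrig1+ and CD4+Lrig1- T cells were compared by bulk RNA sequencing. By the authors' account, reads were trimmed with Trimmomatic 0.38, mapped with HISAT2 2.1.0 and assembled with StringTie 2.1.3b. The submitters' processing notes name GRCm38. The authors deposited estimated counts per RefSeq transcript, as whole numbers without normalization. The FPKM and TPM values in the deposited tables are likewise those of StringTie, as the authors ran it. The labels list 6 samples. The 2 tables whose columns name the sort hold 4 libraries, and 6 columns of per-sample values in a further table were not used, because their names do not give the sort. The columns carry no replicate number, and where libraries are not separate animals p-values measure technical spread only.

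Counts were summed over the 129299 transcripts per gene. The main test was the quasi-likelihood test of edgeR 4.0.16 (R 4.3.3), after filterByExpr and TMM scaling, at a Benjamini-Hochberg threshold of 0.05, without and with the table as a term. A prior count of 2 went into each log2 ratio. Counting intervals are Clopper-Pearson intervals at 95%. limma 3.58.1 was run on log2(FPKM + 1) and log2(FPKM + 0.1), and DESeq2 1.42.0 as a second test. The procedure was also run on simulated counts, whose spread was taken from a fit with the table term. That run therefore cannot decide between the fits without and with the term, and nothing is read from it. The libraries' deviations from their sort's mean correlated at 0.883 within a set.

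The 8 genes and the 9 pathway and 10 marker lists were chosen with earlier results of these data known. Named beside the 8 genes were, by rule, up to 4 genes per list with the smallest p in the fit with the table term, the closest paralogs, neighbours within 100 kb and the 5 genes nearest in pattern. *Itgax*, *Siglech*, *Flt3*, *Xcr1*, *Batf3*, *Itgam*, *Klrb1c*, *Klre1*, *Eomes*, *Cdh5*, *Amigo2*, *Nsg2*, *Il6st* and *Aim2* were named after their values were seen. So were *Fcgr3*, *Clec7a*, *Lyz2*, *Adgre1*, *S100a9*, *Camp*, *Mpo*, *Cd22*, *Cd79b* and *Vpreb3*. Of the 45777 gene IDs, 45679 matched RefSeq, and all 8 genes had a promoter window.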

Additional observations from a re-analysis of the deposited data

Results flagged for a closer look

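These differences went opposite ways in the 2 sets, each from 1 library per sort. The transcript shares and the marker sums were not tested. *Adam22*, *Ffar1* and *Dap* were not called (adjusted p = 0.306, 0.735 and 0.957, edgeR with the table term). The share of NM_134156 in *Actn1* in CD4+Lrig1+ minus that in CD4+Lrig1- T cells was -12.1 percentage points in set 1 and 9.66 in set 2. For NM_001168512 in *Ffar2* it was -27.5 and 40.8, and for XM_006495969 in *Adam23* 45.9 and -0.707. The log2 ratio of *Adam22* was -2.81 in set 1 and 0.29 in set 2, that of *Ffar1* was 0.17 and -0.88, and that of *Dap* was -0.031 and 0.016. The summed CPM of the B cell markers in CD4+Lrig1- over CD4+Lrig1+ T cells was 0.778 in set 1 and 1.95 in set 2, and that of the NK cell markers was 0.912 and 1.15. Of the 5 NK cell markers, 4 were higher in CD4+Lrig1- in both sets, and *Eomes* alone had the opposite order.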

How the results depend on the processing

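With the replicate block, here the table that holds a library, 2056 genes were called lower and 2358 higher, against 0 and 0 without it. The columns carry no replicate number, so the block is the table and not an animal, and it leaves 1 residual degree of freedom. Of the genes of the pathway lists, 27 were then called lower and 22 higher, and of the neighbours within 100 kb 1 and 6, against 0 without the block. The DESeq2 Wald test gave 50 lower and 260 higher genes without the table term, of which 2 and 4 were in the lists. With the term, added after seeing the data, it gave 1969 and 1848, with 28 and 20 in the lists. Leaving out 1 library at a time gave 0 to 2 lower and 1 to 88 higher genes, with the lone library of a sort assumed to vary like the others. The cause of these differences in counts was not tested. The median log2 ratio of the 8 genes was -2.78 in set 1 and -1.80 in set 2 on log2(FPKM + 0.1), and -1.38 and -0.95 on log2(FPKM + 1), where the pseudocount exceeds the FPKM of several surface genes. All 95 fold changes of the 8 genes recomputed under the alternatives were below 0, from -6.01 to -0.61. The genes were chosen on the counts of these same libraries, so nothing is read from that sign. Of the 95, 17 were marked as moved by more than 1 SD, a limit that differed between genes. A shift of *Stra6l* from -3.72 to -3.92 was marked, and a shift of *Cadm3* from -3.93 to -2.86 was not. The count therefore does not rank the genes by stability. With 4 to 74 counts in CD4+Lrig1+ T cells, the levels of the 5 surface genes are limited by depth there.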
